A study of Bos taurus with 24 samples.

Results

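TNFAIP3 (ENSBTAG00000000436), TNIP1 (ENSBTAG00000012671) and BIRC3 (ENSBTAG00000024918) are 3 of the 24616 bovine genes quantified in this study. They were picked by name as feedback genes of NF-kB signalling, with earlier results of these data known. They were followed in monocyte-derived macrophages (MDMs) of 6 lactating Holstein cows, 3 from the high and 3 from the low responder group, named for the nitric oxide that their MDMs release when they meet E. coli. Adherent blood monocytes of every cow were grown for 6 days in serum-free medium with 5 ng/ml recombinant bovine GM-CSF, and both the control and the exposed wells carry this treatment. Per cow and time point, 1 well stayed untreated as the control and 1 received E. coli inactivated with PFA (multiplicity of infection 5), and RNA was taken at 3 or 18 hours. The 8 conditions of phenotype, exposure and time therefore hold 3 libraries each, and the question was how far the MDMs of the 2 phenotypes differ in their response to the same bacteria.

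NF-kB is held in the cytoplasm by IkB proteins until signals from Toll-like or TNF receptors, carried by chains of ubiquitin on the adaptors and kinases of the pathway, release it to the nucleus. Among the genes it then switches on are some that act back on the same signal. TNFAIP3 encodes A20, an enzyme that edits ubiquitin chains and shuts the pathway down, and TNIP1 encodes ABIN-1, a ubiquitin-binding partner through which A20 reaches its targets. BIRC3 encodes cIAP2, a ubiquitin ligase that builds chains on RIPK1 and protects cells from death signals.

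The deposited expected counts, RSEM's estimates of read pairs per gene, summed to between 6297189 and 20936550 per library. The 3 genes were covered well in all 24 libraries, with between 210 and 8215 expected counts of TNFAIP3, 1171 to 16872 of TNIP1 and 1314 to 32767 of BIRC3, and all these counts were whole numbers. In the RefSeq annotation of the assembly ARS-UCD2.0, which is not the build the authors mapped to, TNFAIP3 lies on chromosome 9 between OLIG3 and PERP, TNIP1 on chromosome 7 between GPX3 and ANXA6, and BIRC3 on chromosome 15 next to BIRC2, which encodes its close relative cIAP1. The 6 macrophage and monocyte markers of 11 whose gene IDs could be looked up (CD14, CD68, MSR1, AIF1, FCGR3A and FCER1G) were detected in all 24 libraries and summed to between 4076 and 6691 TPM (transcripts on a per-million scale, which accounts for transcript length) in control wells and to between 3385 and 4799 in exposed wells. The B cell gene CD79A stayed between 0.17 and 2.67 TPM, and the T cell, NK cell, dendritic cell, neutrophil, and platelet and erythroid markers were not analysed here. In such bulk libraries, fewer cells of a type and less RNA per cell cannot be told apart, and the part of the lower macrophage marker range of exposed wells in the changes below was not tested.

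Levels are given as CPM, counts on a per-million scale of the library, adjusted with TMM factors, which take out differences in depth and composition between libraries. Cows are named by the code number of their libraries, and this name holds only within a phenotype and time point. The same number in the other phenotype is another cow, and at the other time point it need not be the same cow. By the letter in the codes, high responders 93 and 94 and low responders 91 and 92 may be different cows at each time point. The labels do not state what the number stands for, and the numbers are spread unevenly over the phenotypes. In control wells at 3 hours, TNFAIP3 stood at 28.5, 36.5 and 21.0 CPM in high responders 92, 93 and 94, and at 30.5, 37.4 and 28.9 CPM in low responders 91, 92 and 93. In the exposed wells of the same cows it stood at 722, 1054 and 707 CPM in the high and at 400.0, 613 and 492 CPM in the low responder group. The control wells of the groups overlapped, and after exposure the lowest high responder lay above the highest low responder.

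At 18 hours the control wells held 34.7, 27.9 and 41.8 CPM of TNFAIP3 in high responders 91, 93 and 94, and 31.6, 28.0 and 33.6 CPM in low responders 91, 92 and 94. The exposed wells held 284, 309 and 452 CPM in the high and 239, 183 and 208 CPM in the low responder group. The control wells again overlapped, and the exposed wells of the phenotypes did not.

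Per transcript length, TNIP1 was the more abundant without bacteria, with means of 139 to 204 TPM in the 4 control conditions beside 18.8 to 24.5 TPM for TNFAIP3. At 3 hours its control wells stood at 159, 201 and 360.3 CPM in high responders 92, 93 and 94 and at 351, 322 and 295 CPM in low responders 91, 92 and 93. The exposed wells reached 1291, 2141 and 1558 CPM in the high and 1093, 1282 and 1268 CPM in the low responder group. High responder 94 stood apart from the other high responders in its control well, at the level of the low responders, and the gap between the exposed wells of the phenotypes was narrow, 1291 against 1282 CPM.

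At 18 hours the control wells held 236, 296 and 200.1 CPM of TNIP1 in high responders 91, 93 and 94 and 291, 288 and 336 CPM in low responders 91, 92 and 94. The exposed wells held 896, 848 and 1191 CPM in the high and 598, 545 and 671 CPM in the low responder group. By the letter in the library codes, high responder 94 of 3 hours and high responder 93 of 18 hours may be the same cow, and this cow had the highest control level of TNIP1 in its group at both time points.

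After 3 hours of exposure BIRC3 was the most abundant of the 3 per transcript length, with means of 1416 TPM in high and 828 TPM in low responders beside 774 and 541 TPM for TNIP1. Its control wells at 3 hours stood at 213, 156 and 176 CPM in high responders 92, 93 and 94 and at 131, 211 and 195 CPM in low responders 91, 92 and 93. The exposed wells reached 2586, 2857 and 3025 CPM in the high and 1189, 1991 and 1990 CPM in the low responder group. The controls overlapped, the exposed wells did not, and low responder 91 was lower than the other low responders in both wells.

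At 18 hours the control wells held 196, 177 and 216 CPM of BIRC3 in high responders 91, 93 and 94 and 162, 145 and 176 CPM in low responders 91, 92 and 94. The exposed wells held 543, 614 and 708 CPM in the high and 380.0, 306 and 392 CPM in the low responder group. In both kinds of well the 3 high responders lay above the 3 low responders at 18 hours, in the control wells only by 177 against 176 CPM and as for 15.3% of all genes.

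**Figure D1:**
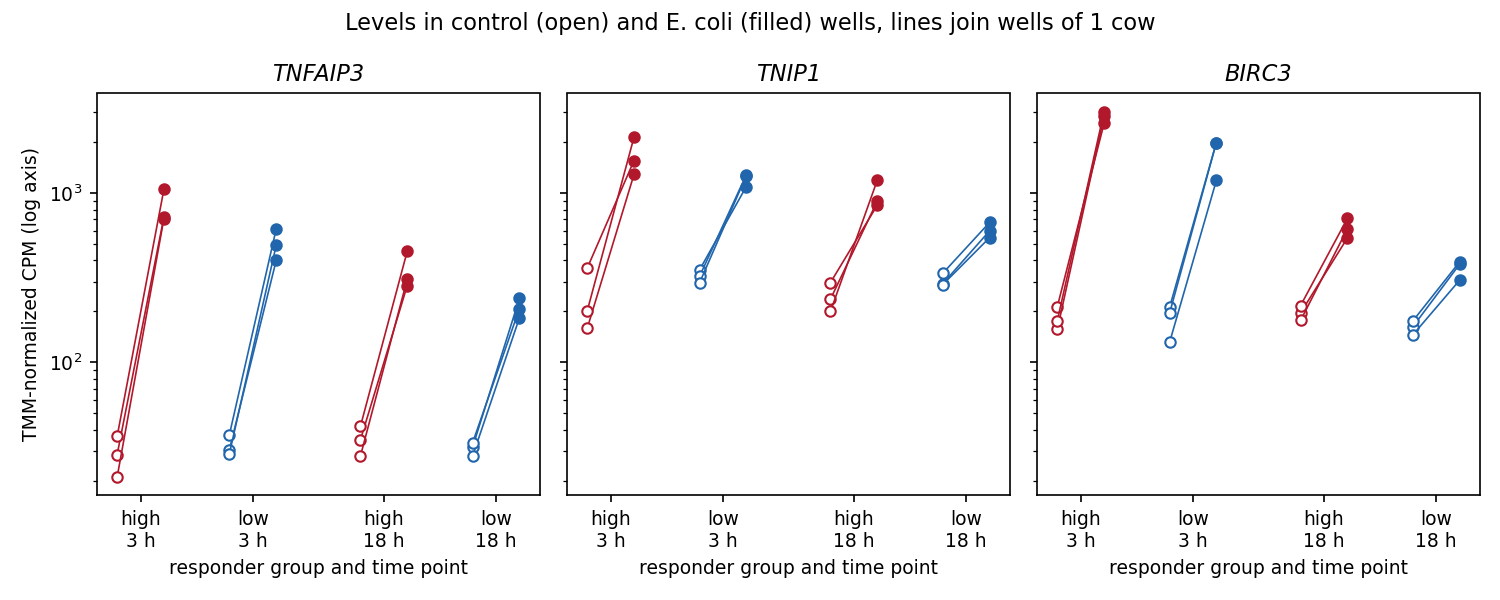
TMM-normalized CPM (log axis) of TNFAIP3, TNIP1 and BIRC3 in each of the 24 libraries, by responder group (red high, blue low) and time point, with open points for control wells, filled points for exposed wells and lines joining the wells of 1 cow. All lines rise, and at either time point the filled red points lie above the filled blue points, for TNIP1 at 3 hours only by 1291 against 1282 CPM.

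In exposed wells, all 3 high responders thus lay above all 3 low responders for each of the 3 genes at both time points, a pattern that 8.18% of the 11264 genes tested at 3 hours and 12.1% of the 11759 tested at 18 hours also showed. The order of the 4 exposed conditions by mean CPM was the same for the 3 genes: high responders at 3 hours, low responders at 3 hours, high responders at 18 hours, low responders at 18 hours. For TNFAIP3 these means were 828 ± 196 (SD, n = 3), 502 ± 107, 348 ± 90.9 and 210.2 ± 27.8 CPM. Low responders at 3 hours and high responders at 18 hours overlapped for TNFAIP3 and TNIP1 and did not for BIRC3, whose means were 2823 ± 222, 1723 ± 463, 622 ± 83.0 and 359 ± 46.8 CPM. The TNIP1 means were 1663 ± 435, 1214 ± 105, 979 ± 186 and 605 ± 63.0 CPM. The 4 control conditions came last for each gene, each overlapping with the control conditions next to it in the order, and the highest of them did not overlap with the exposed wells of low responders at 18 hours.

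E. coli raised all 3 genes in both phenotypes at both time points. TNFAIP3 rose most: in the edgeR quasi-likelihood test with a term for the cow, its level in high responders at 3 hours was 30.5-fold that of the controls, a log2 fold change of 4.93 ± 0.15 (SE, n = 3 cows, adjusted p = 2.8e-07). Of the 11264 genes tested it had the 5th smallest p in each phenotype. In low responders the rise was 15.6-fold (log2 fold change 3.96 ± 0.14, adjusted p = 1.05e-06). BIRC3 followed with 16.4-fold in high (4.03 ± 0.15, adjusted p = 5.59e-07) and 9.63-fold in low responders (3.27 ± 0.14, adjusted p = 3.01e-06). TNIP1 rose 7.56-fold in high (2.92 ± 0.23, adjusted p = 2.69e-05) and 3.8-fold in low responders (1.93 ± 0.22, adjusted p = 0.000474). All 3 genes thus passed the threshold, an adjusted p below 0.05 and a fold change above 1.5, in both phenotypes, beside 15.7% of all genes tested that rose by this rule in high and 9.93% in low responders.

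At 18 hours the rises were smaller. TNFAIP3 was raised 9.90-fold in high (log2 fold change 3.31 ± 0.11, adjusted p = 3.65e-08) and 6.65-fold in low responders (2.73 ± 0.11, adjusted p = 1.92e-07). TNIP1 was raised 4.0-fold in high (2.00 ± 0.17, adjusted p = 6.05e-06) and 1.95-fold in low responders (0.97 ± 0.16, adjusted p = 0.000822). BIRC3 was raised 3.15-fold in high (1.65 ± 0.09, adjusted p = 4.38e-07) and 2.20-fold in low responders (1.13 ± 0.09, adjusted p = 7.33e-06). Again 3 of 3 genes passed in both phenotypes, beside 17.1% of all genes that rose in high and 11.3% in low responders. In 6 of 6 cows every gene was higher in the exposed than in the control well, at either time point, and these 12 responses passed the threshold in every alternative and with each cow left out.

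The response was larger in high responders for each gene and time point, but no difference passed the threshold. At 3 hours the rise of TNFAIP3 was 25.3- to 33.7-fold in the 3 high and 13.1- to 17.0-fold in the 3 low responders. The difference of the log2 responses, high minus low, was 0.97 ± 0.18 (95% confidence interval 0.56 to 1.38), with an adjusted p of 0.0731 over all genes tested in edgeR. For TNIP1 the rises were 4.32- to 10.6-fold in high and 3.11- to 4.30-fold in low responders, and the difference was 0.99 ± 0.31 (0.30 to 1.69, adjusted p = 0.268). For BIRC3 they were 12.1- to 18.3-fold and 9.05- to 10.2-fold, and the difference was 0.77 ± 0.19 (0.34 to 1.19, adjusted p = 0.160). The changes per cow did not overlap between the phenotypes for any of the 3 genes, as for 8.75% of all genes in this direction.

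At 18 hours the gap was widest for TNIP1, which rose 2.86- to 5.95-fold in the 3 high and 1.89- to 2.05-fold in the 3 low responders, a difference of 1.03 ± 0.23 on the log2 scale (0.53 to 1.54, adjusted p = 0.0560 in edgeR). TNFAIP3 rose 8.17- to 11.1-fold in high and 6.19- to 7.56-fold in low responders, a difference of 0.57 ± 0.15 (0.24 to 0.91, adjusted p = 0.0877). BIRC3 rose 2.77- to 3.47-fold and 2.11- to 2.34-fold, a difference of 0.52 ± 0.12 (0.24 to 0.80, adjusted p = 0.0710). In CPM the changes per cow did not overlap here either, as for 10.5% of all genes in this direction. In deposited TPM those of TNFAIP3 did, with 2.666 in high responder 91 and 2.668 in low responder 91 on the log2 scale.

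So 0 of 3 genes were called by edgeR at either time point, where 0.178% of all genes were called at 3 hours and 1.62% at 18 hours. The unadjusted p was below 0.05 for 3 of 3 genes at both times. By this p, TNFAIP3, TNIP1 and BIRC3 ranked 71, 442 and 204 of 11264 genes tested at 3 hours. At 18 hours they ranked 456, 237 and 333 of 11759. The DESeq2 counts that follow stand without the share of all genes that DESeq2 called. DESeq2 called 2 of 3 at 3 hours, TNFAIP3 (adjusted p = 0.00280) and BIRC3 (adjusted p = 0.0481), and 2 of 3 at 18 hours, TNFAIP3 (adjusted p = 0.0327) and TNIP1 (adjusted p = 0.000176), while BIRC3 at 18 hours had an adjusted p of 0.0171 and a fold change under 1.5. Without high responder 94 at 3 hours edgeR called all 3: TNFAIP3 with a difference of 0.84 (adjusted p = 0.0109), TNIP1 with 1.33 (adjusted p = 0.00109) and BIRC3 with 0.67 (adjusted p = 0.0478). This is the cow with the high control level of TNIP1, and without it 506 genes in all were called in place of 20. Without high responder 93 at 18 hours the difference of TNIP1 was 1.3 (adjusted p = 0.0198). Without the term for the cow, thus ignoring the pairing of wells, the adjusted p was 0.999 for the 3 genes at 3 hours and at least 0.246 at 18 hours, with 0 genes called in all. With the cow term kept, exposure was also allowed to differ between library codes 91 and 92 and library codes 93 and 94. With this term edgeR called 0 genes in all at 3 hours and 0 of 3 at 18 hours (adjusted p 0.146 to 0.201). The part of high responder 94 in the calls was not tested beyond leaving it out.

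**Figure D2:**
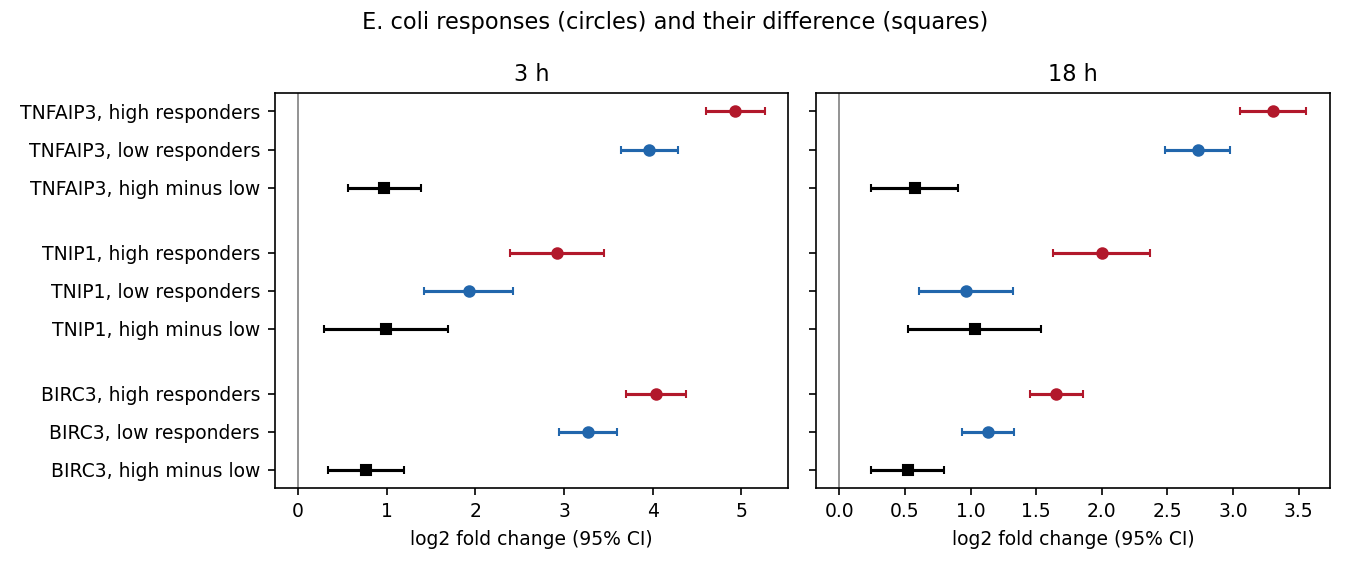
Log2 fold change after E. coli exposure with 95% confidence interval in high (red circles) and low responders (blue circles), and the difference between them (black squares), for each gene at 3 hours and 18 hours. Each interval of a response and of a difference lies above 0, although no difference passed the adjusted threshold in edgeR.

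**Figure D3:**
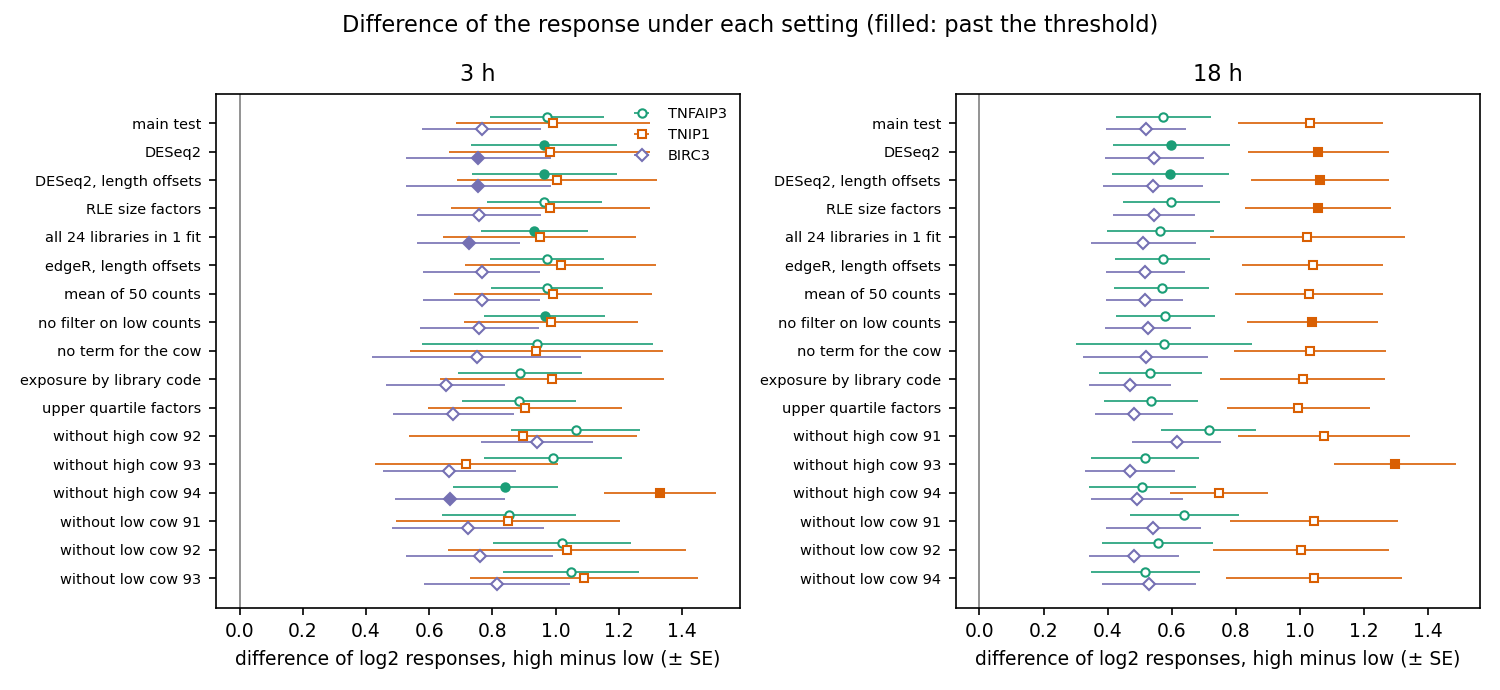
Difference of the log2 responses, high minus low, ± SE for the 3 genes under the main test, its alternatives and with each cow left out, filled where it passed the threshold. The differences stay above 0 in every setting, and at 3 hours all 3 are filled only without high responder 94.

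The same comparison was made between phenotypes in the control and in the exposed wells alone, in fits of 6 libraries. In control wells no gene differed past the threshold. At 3 hours the log2 differences, high minus low, were -0.18 ± 0.27 for TNFAIP3, -0.44 ± 0.31 for TNIP1 and 0.01 ± 0.23 for BIRC3, and at 18 hours 0.15 ± 0.16, -0.33 ± 0.15 and 0.27 ± 0.11. Here 0 of 3 were called at both times by edgeR and by DESeq2, beside 0.00906% and 0.15% of all genes called by edgeR. In edgeR, 0 of 3 unadjusted p values were below 0.05 at 3 hours and 1 of 3 at 18 hours. The latter was BIRC3, at rank 2354 by p of 11356 genes tested.

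In exposed wells the levels of high responders were above those of low responders by 0.76 ± 0.25 (TNFAIP3), 0.50 ± 0.24 (TNIP1) and 0.75 ± 0.24 (BIRC3) at 3 hours on the log2 scale, with adjusted p of 0.275, 0.415 and 0.274. At 18 hours the differences were 0.73 ± 0.20, 0.70 ± 0.17 and 0.79 ± 0.15, with adjusted p of 0.130, 0.111 and 0.0816. edgeR called 0 of 3 at both times, beside 0.0839% and 0.0446% of all genes, with unadjusted p below 0.05 for 2 of 3 and 3 of 3. By this p, TNFAIP3, TNIP1 and BIRC3 ranked 545, 1725 and 506 of 10726 genes tested at 3 hours. At 18 hours they ranked 561, 328 and 126 of 11210. The DESeq2 counts here stand without the share of all genes that DESeq2 called. DESeq2 called 0 of 3 at 3 hours and 3 of 3 at 18 hours, with adjusted p of 0.0117 (TNFAIP3), 0.00315 (TNIP1) and 0.000189 (BIRC3). For TNIP1 the difference in response thus joined a higher exposed level with a lower control level in high responders, neither of which passed alone in edgeR, whereas the controls of TNFAIP3 and BIRC3 differed by at most 0.27.

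Between 3 and 18 hours the 3 genes fell back at different rates. Each time point had its own culture plate, so that time and plate cannot be told apart. The levels of 18 and 3 hours were compared without a term for the cow, although the same cows gave both. On the log2 scale, BIRC3 in the exposed wells fell by 2.19 ± 0.21 in high (adjusted p = 4.21e-07) and by 2.27 ± 0.21 in low responders (adjusted p = 6.21e-07), which left 22.0% and 20.9% of its mean CPM of 3 hours. TNFAIP3 fell by 1.26 ± 0.23 in high (adjusted p = 0.000463) and by 1.26 ± 0.23 in low responders (adjusted p = 0.000668), which left 42.1% and 41.9%. TNIP1 fell by 0.77 ± 0.24 in high (adjusted p = 0.0199) and by 1.01 ± 0.24 in low responders (adjusted p = 0.00481), which left 58.8% and 49.8%. All 3 were called in both phenotypes, beside 13.2% of all genes that fell in high and 11.4% in low responders. The fall of TNIP1 in high responders was no longer called without high responder 91 or 93 of 18 hours (adjusted p = 0.0733 and 0.0787) or without high responder 93 of 3 hours (adjusted p = 0.127).

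The control wells stayed level. Their log2 changes from 3 to 18 hours ranged from -0.16 to 0.28 over the 3 genes and both phenotypes, with 0 of 3 called in either phenotype by edgeR or DESeq2, none with an unadjusted p below 0.05, beside 0.0084% of all genes in high and 0.0336% in low responders. The log2 response itself, exposed over control, changed by -2.31 ± 0.17 for BIRC3, -1.56 ± 0.17 for TNFAIP3 and -0.85 ± 0.31 for TNIP1 in high responders. In low responders it changed by -2.10 ± 0.17, -1.19 ± 0.17 and -0.93 ± 0.30. All 3 were called in both phenotypes, beside 15.9% and 10.4% of all genes that fell, but TNIP1 only just, with adjusted p of 0.0493 in high and 0.0492 in low responders. In high responders TNIP1 was no longer called without high responder 91 or 93 of 18 hours or 92 or 93 of 3 hours (adjusted p from 0.121 to 0.200), and in low responders it was lost without any 1 of the 3 low responders of either time (adjusted p from 0.0646 to 0.148). How far the difference between phenotypes changed with time was tested too: it moved by -0.37 ± 0.24 for TNFAIP3, 0.07 ± 0.43 for TNIP1 and -0.21 ± 0.23 for BIRC3, with 0 of 3 and 0% of all genes called by edgeR, 0 of 3 by DESeq2 and 0 of 3 unadjusted p values below 0.05.

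The 3 transcripts therefore stood in different proportions in each state, which was measured as the ratio of their deposited TPM within a library, a level per transcript length that needs no scaling between libraries. In 9 exact tests on log2 ratios, chosen after the data were seen, p values were adjusted over the 9. Without bacteria, TNFAIP3 was the scarcest: there were between 4.51 and 16.0 TNIP1 transcripts per TNFAIP3 transcript in the 12 control wells. In the exposed wells there were 1.70 to 2.57 at 3 hours and 2.35 to 3.02 at 18 hours. The ratio fell in 6 of 6 cows at both times, by 2.00 ± 0.52 (SD) and 1.54 ± 0.44 on the log2 scale (exact sign-flip test over 6 cows, two-sided p = 0.0312, the smallest it can give, adjusted 0.0352).

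BIRC3 and TNIP1 changed places between the exposed wells of 3 and 18 hours. In control wells at 3 hours there were 0.781 ± 0.37 (SD, n = 6) BIRC3 transcripts per TNIP1 transcript, and in exposed wells 1.70 ± 0.37. The ratio rose in 6 of 6 cows, by 1.21 ± 0.51 on the log2 scale (exact sign-flip p = 0.0312, adjusted 0.0352). The control wells ranged from 0.408 to 1.48 and overlapped with the exposed wells, since the control well of high responder 92 already held more BIRC3 than TNIP1 (1.48). All 6 exposed wells then held more BIRC3 than TNIP1, at 1.18 to 2.14. At 18 hours all 6 held less, at 0.611 to 0.775, and the exposed wells did not differ from their controls past the threshold (-0.09 ± 0.46, exact sign-flip p = 0.656, adjusted 0.656, higher in 4 of 6 cows). From control to exposed wells the mean ratio went from 0.906 to 0.694 in high and from 0.571 to 0.644 in low responders. The phenotypes were not tested apart. Between the exposed wells of 3 and 18 hours the ratio fell by 1.32 on the log2 scale with no overlap (exact permutation test of 6 against 6 libraries, two-sided p = 0.00216, adjusted 0.00974).

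BIRC3 also lost ground against TNFAIP3. Their ratio went from 6.25 ± 1.72 (SD, n = 6) in control wells to 3.53 ± 0.62 in exposed wells at 3 hours, and from 5.54 ± 0.48 to 1.80 ± 0.19 at 18 hours, lower in 6 of 6 cows each time (exact sign-flip p = 0.0312, adjusted 0.0352). The exposed wells of 18 hours lay below those of 3 hours without overlap (exact permutation p = 0.00216, adjusted 0.00974). TNIP1 per TNFAIP3 moved the other way between the exposed wells of the 2 time points, up by 0.35 (exact permutation p = 0.0130, adjusted 0.0352). The tests between time points treat the libraries as separate although the same 6 cows gave both, and with cows matched by the letter of their library codes each of the 3 ratios moved one way in 6 of 6 cows (exact sign-flip p = 0.0312, the smallest possible).

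**Figure D4:**
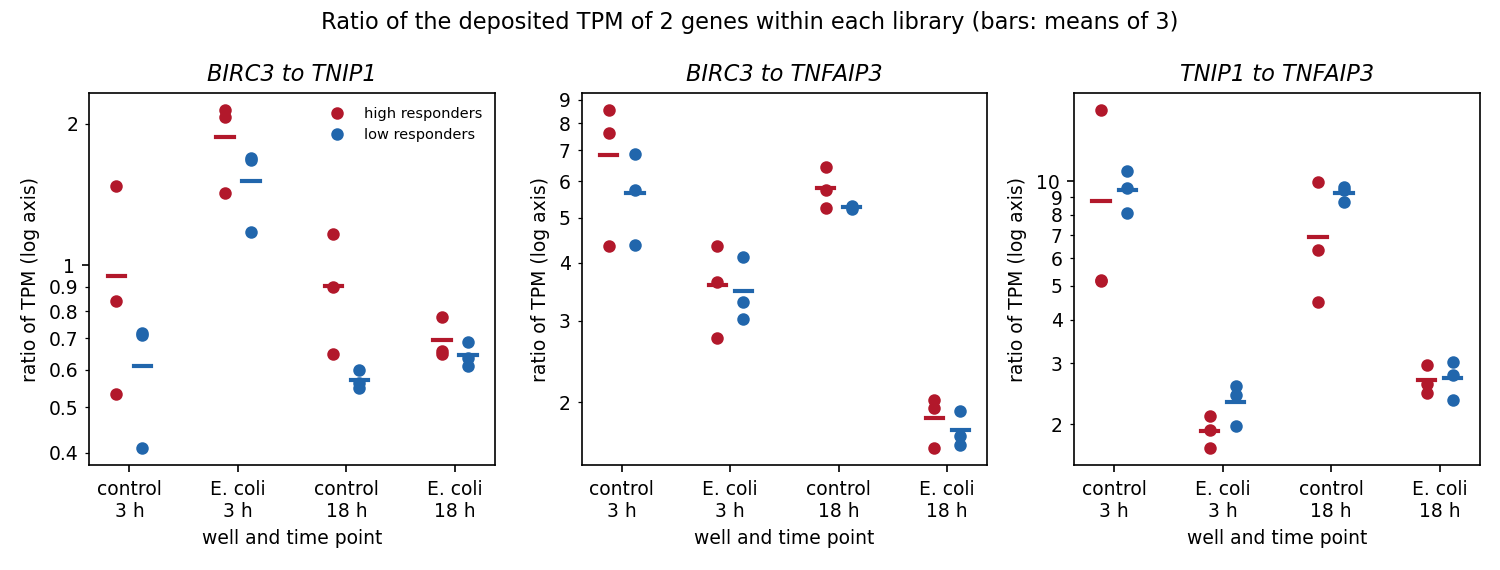
Ratio of the deposited TPM of 2 genes within each library (log axis) in control and E. coli wells at 3 and 18 hours, with high responders in red, low responders in blue and bars for the means of 3 libraries. BIRC3 exceeds TNIP1 in the exposed wells of 3 hours (1.18 to 2.14) and falls below it in those of 18 hours (0.611 to 0.775).

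Other genes of the pathway were taken from 8 lists by textbook role. Of their 95 entries, 41 had a gene ID in the symbol tables at hand, 32 of them only in a table sorted by the p of the 18 hours comparison, so that they lean towards genes that differ between the phenotypes. At 3 hours 32 of the 41 rose and 1 fell in high responders and 29 rose and 1 fell in low responders. At 18 hours 31 rose and 2 fell in high and 24 rose and 4 fell in low responders. Of all genes tested, 11.9% fell in high and 7.78% in low responders at 3 hours, and 22.5% and 17.8% at 18 hours. The gene that fell at each time and in both phenotypes was MYD88, the adaptor of most Toll-like receptors, with log2 fold changes of -0.66 and -0.71 at 3 hours and -0.96 and -0.72 at 18 hours in high and low responders. MYD88, TLR4, MAP3K7, ITCH and the value of IL6 at 18 hours are named here after their values were seen. Of the other receptors and adaptors, IRAK2, a kinase of the receptor complex, rose most, by 4.36 and 3.69 at 3 hours, and TLR4, the receptor for the lipopolysaccharide of E. coli, was not called in any response (0.33 and 0.06 at 3 hours). The monocyte marker CD14, which presents lipopolysaccharide to TLR4, fell by 1.08 in low responders at 18 hours, beside a value of -0.42 in high responders that was not called.

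Of the kinases, MAP3K8, which relays the signal to the MAP kinases, rose by 2.7 in high and 2.18 in low responders at 3 hours. TAB2 and TBK1 rose in both phenotypes at both times, and MAP3K7, whose product TAK1 activates the IkB kinases, was called nowhere (0.20 to 0.26). Of the Rel factors with an ID, NFKB2 rose by 3.77 and 3.04 at 3 hours and by 2.41 and 2.01 at 18 hours, and RELB by 2.59 and 1.79, then 1.23 and 0.75. All 3 IkB proteins looked up rose in both phenotypes at both times, led by NFKBIZ (4.91 and 3.76 at 3 hours), ahead of NFKBIE (3.11 and 2.47) and NFKBIB (2.18 and 1.43). The call of NFKBIB in low responders at 3 hours was lost without low responder 92 (adjusted p = 0.0608) and without the term for the cow (adjusted p = 0.133). NFKBIA was not analysed here.

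Among A20's partners and the ubiquitin-editing enzymes, TNIP3, which encodes the A20-binding ABIN-3, rose by 5.02 in high and 3.18 in low responders at 3 hours and by 3.04 and 1.73 at 18 hours. TNIP1 and TNFAIP3 stand beside these at 2.92 and 4.93 in high and 1.93 and 3.96 in low responders at 3 hours, and the differences between the genes were not tested. Of the other 4 genes of this list, TAX1BP1, an adaptor of A20, rose by 0.65 in high responders at 3 hours and by 1.11 at 18 hours. Its call at 3 hours was lost without high responder 94, without the term for the cow and with upper quartile factors. RBCK1 rose by 0.70 in high responders at 3 hours. This call was lost without high responder 92 or 93, without the term for the cow and with upper quartile factors. OTUD7B rose by 0.97 in high and 0.68 in low responders at 18 hours, called in every alternative and with each cow left out. ITCH, a ubiquitin ligase that works with A20, was called nowhere (-0.33 to 0.11). TNIP2 was not analysed here.

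Of the relatives of BIRC3, BIRC2 and XIAP were not analysed here. NAIP, an inhibitor of apoptosis protein that senses bacterial proteins, rose by 3.93 in high and 1.89 in low responders at 3 hours and by 3.06 and 1.95 at 18 hours. BIRC5, whose product survivin acts in cell division, fell by 2.32 in high responders at 18 hours and by 1.62 in low responders. CASP8, the caspase of the death receptors, rose by 0.82 and 0.66 at 3 hours, in low responders not without low responder 91 or 92 (adjusted p = 0.0938 at most), without the term for the cow (adjusted p = 0.151) or with upper quartile factors (0.55, adjusted p = 0.0154), and by 1.09 in high responders at 18 hours, beside 0.43 in low responders that was not called. Of the other feedback genes, IRAK3, which blocks the receptor complex, rose by 2.54 and 1.86 at 3 hours, and DUSP1, a phosphatase of MAP kinases, by 2.51 and 2.24. The target genes rose furthest, with 6.98 and 7.20 for the cytokine IL1B and 6.49 and 7.08 for IL6 at 3 hours. At 18 hours IL6 had fallen back to 2.15 in high and 0.07 in low responders, the latter not called.

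The difference between phenotypes was above 0 in 38 of the 41 pathway genes at 18 hours, with a median of 0.53 on the log2 scale beside -0.02 over all 11759 genes tested, and the 3 feedback genes lay between 0.52 and 1.03. Of these 41, the 32 known only from the table sorted by the p of this comparison were chosen with the same values, so that this median is a description. For the 9 genes from the table in gene ID order the median was 0.22, with 8 of 9 above 0. The 3 feedback genes also have their symbol only from the table sorted by p. The study names them among its 3 hours genes at an adjusted p below 0.1. Their place beside all genes is thus a description too. Of the 41, 4 were called at 18 hours (CCL5, TNIP3, NAIP and CASP8, all larger in high responders) and 1 at 3 hours (NAIP, by 2.04), beside 1.62% and 0.178% of all genes tested. Of the 9 genes from the table in gene ID order, NAIP alone was called.

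**Figure D5:**
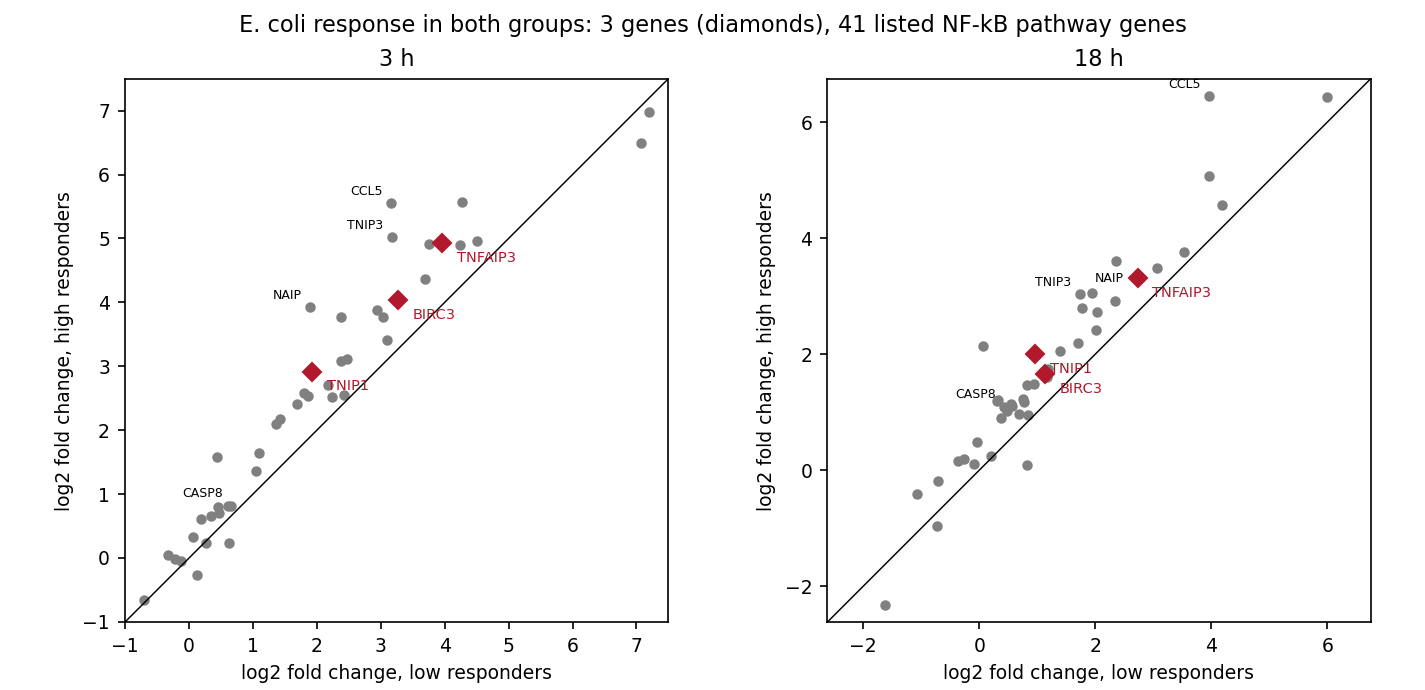
Log2 fold change after E. coli exposure in low (x axis) and high responders (y axis) for 41 listed NF-kB pathway genes (grey) and the 3 feedback genes (red diamonds) at 3 and 18 hours, with a line of equal response. The 3 diamonds lie above the line at both times, as do 38 of the 41 grey points at 18 hours.

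The genes whose log2 CPM ran most like those of the 3 over the 24 libraries were named from the 2289 with a symbol among 11904 other genes, as a description, since the libraries share cows and most of their spread is between control and exposed wells. Of the genes with a symbol, TNFAIP3 ran closest to ICAM1 (Pearson r = 0.991), the adhesion molecule, then NFKB2 (0.987), PRDM1 (0.983), ABHD13 (0.982) and IRAK2 (0.981). TNIP1 ran closest to ARHGEF2 (0.980), the IkB gene NFKBIE (0.974), NFKB2 (0.972), SDC4 (0.971) and MARCKSL1 (0.967). BIRC3 ran closest to NLRP3 (0.973), the inflammasome sensor, then DDIT4 (0.970), HYAL2 (0.966), VPS37A (0.966) and TRAF3IP2 (0.964). Genes without a symbol lay between or above some of these: among all 11904, NLRP3 ranked 4 and TRAF3IP2 13 for BIRC3, NFKB2 ranked 3 for TNFAIP3 and 4 for TNIP1, and ICAM1 and ARHGEF2 ranked 1. Among the 3 themselves r was 0.952 for TNIP1 and TNFAIP3, 0.939 for BIRC3 and TNFAIP3, and 0.922 for BIRC3 and TNIP1. None was thus among the nearest 5 named for another. Of all 11904 genes, 265 had r above 0.9 with TNFAIP3, 174 with TNIP1 and 160 with BIRC3.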

How the data were processed

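MDMs of 6 Holstein cows gave 24 mRNA libraries, 3 for each of the 8 conditions of phenotype, exposure and time point. The authors made stranded libraries, trimmed the read pairs with Trimmomatic, checked their quality in FastQC 0.11.5, aligned them to the UMD 3.1 assembly using STAR, and let RSEM estimate the level of each Ensembl gene. The deposited expected counts are not normalized, and were rounded to whole numbers for the tests. The deposited TPM values are scaled by the authors' RSEM run to transcript length and to a fixed sum per library, and were used for ratios and for levels between genes. The deposited transcript lengths served for offsets. Depth per library limits the precision of low counts, and here each value rests on at least 210 expected counts.

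The main tests used edgeR 4.0.16 under R 4.3.3 (TMM factors, filterByExpr by condition, quasi-likelihood test, Benjamini-Hochberg adjustment over all genes tested). Responses and their difference came from 1 fit per time point with a term for the cow, and phenotypes within wells from fits of 6 libraries. Time comparisons came from all 24. Changes of the response with time had a term for the cow within each time point, and levels over time had none. A gene was called at an adjusted p below 0.05 and a fold change above 1.5, the rule behind the study's gene lists, while its pathway analysis used an adjusted p of 0.1. Log2 CPM used a prior count of 2. The labels do not state which wells share a cow. Libraries of 1 phenotype and time with the same code number were paired, after the study's numbering. Their deviations from the group means correlated between 0.332 and 0.730 (12 pairs), against -0.564 to 0.00102 for the 24 other pairings. Part of this gap is built in, since centring on group means pushes the other pairings below 0 when like codes correlate. It also cannot tell a shared cow from anything else that the code number may stand for. Cows of both times were matched by letter only as an alternative. Alternatives were RLE and upper quartile factors, no filter or a minimum mean of 50 counts, edgeR with length offsets, DESeq2 1.42.0 with or without them, no term for the cow, a term for exposure by library code, all 24 libraries in 1 fit, other thresholds, and each cow left out. The library code term set code numbers 91 and 92 against 93 and 94. The ratios, the lengths of TNIP1 and their exact tests (scipy, sign-flip and permutation) were chosen after the data were seen. The fits were tested on simulated data.

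The 3 genes, the lists and the rule for named genes (TNIP2, TNIP3, BIRC2, XIAP and NFKBIA, listed genes called in a difference, up to 3 per list with the largest called response, and 5 nearest genes by r) were chosen with earlier results of these data known. Symbols came from copies of 2 supplementary tables that end after 1997 rows, so that genes without a symbol there were not analysed here. The authors' fold changes and p-values in those tables were not used.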

Additional observations from a re-analysis of the deposited data

Results flagged for a closer look

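Among the genes of the NF-kB lists, 5 differences of the response between high and low responders passed the test of the difference itself in edgeR, all of them larger in high responders, and the lists lean towards genes with a low p in the 18 hours comparison. NAIP differed by 2.04 ± 0.24 (SE) on the log2 scale at 3 hours (adjusted p = 0.0265) and was called with 2 of 6 cows left out in turn. It was not called without high responder 93 or any 1 of the 3 low responders (adjusted p up to 0.188), nor with the library code term (adjusted p = 0.101). At 18 hours NAIP differed by 1.11 ± 0.13 (adjusted p = 0.00607), and it was called whichever cow was left out (adjusted p up to 0.0463). TNIP3, the relative of TNIP1, differed by 1.31 ± 0.26 at 18 hours (adjusted p = 0.0403), and leaving out any 1 of the 6 cows ended the call (adjusted p up to 0.11). CASP8 differed by 0.67 ± 0.13 (adjusted p = 0.0382) and was called with only 1 cow left out, low responder 91 (adjusted p otherwise up to 0.145). CCL5, a chemokine, differed by 2.49 ± 0.45 (adjusted p = 0.0314) and was not called without low responder 92 or 94 (adjusted p up to 0.156). With the cow term kept, the calls of TNIP3, CASP8 and CCL5 were also lost with all 24 libraries in 1 fit (adjusted p = 0.0850, 0.0780 and 0.0717). They were lost with the library code term too (adjusted p = 0.0954, 0.106 and 0.1004), and the call of NAIP at 18 hours was kept in both. Without the cow term none of the 5 was called (adjusted p from 0.246 to 0.648). The differences of TNFAIP3, TNIP1 and BIRC3 did not pass in that test.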

How the results depend on the processing

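The E. coli responses of TNFAIP3, TNIP1 and BIRC3 kept their direction and call under every alternative and with each cow left out. Ignoring the pairing of wells (no replicate block) changed no call of these responses, left the differences between phenotypes uncalled, and ended the call of TNIP1 in the change of the response with time, at -0.80 in high responders (adjusted p = 0.127) and -0.92 in low responders (adjusted p = 0.132). Upper quartile factors ended it too, at -0.82 (adjusted p = 0.0542) and -0.90 (adjusted p = 0.0519). Matching cows across time by letter changed no call.

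The differences of the response passed the threshold under some settings. At 3 hours TNFAIP3 passed with DESeq2 at 0.96, with DESeq2 and length offsets at 0.96, with all 24 libraries in 1 fit at 0.93, without a filter at 0.96 and with an adjusted p below 0.1 at 0.97. BIRC3 passed at 3 hours with DESeq2 at 0.75, with length offsets at 0.76 and with all 24 libraries at 0.72. At 18 hours TNFAIP3 passed with DESeq2 at 0.60 and with length offsets at 0.60. TNIP1 passed at 18 hours with DESeq2 at 1.06, with length offsets at 1.06, with RLE factors at 1.06, without a filter at 1.04 and with an adjusted p below 0.1 at 1.03. In exposed wells at 18 hours DESeq2 called TNFAIP3 at 0.75, TNIP1 at 0.71 and BIRC3 at 0.81, and with an adjusted p below 0.1 BIRC3 passed at 0.79. When 1 cow at a time was dropped, the differences at 3 hours ranged from 0.84 to 1.06 for TNFAIP3, from 0.72 to 1.33 for TNIP1 and from 0.66 to 0.94 for BIRC3. At 18 hours TNIP1 ranged from 0.75 to 1.3. Its change of the response with time ranged from -1.22 to -0.56 in high and from -1.07 to -0.83 in low responders, and its fall in exposed wells of high responders from -0.94 to -0.55.

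Values near 0 that were called nowhere turned their sign. With cows left out these were the change of the difference with time of TNIP1 (-0.30 to 0.37), the control wells from 3 to 18 hours for TNIP1 in high (-0.20 to 0.44) and TNFAIP3 in low responders (-0.14 to 0.061), and the control wells, high minus low, for TNFAIP3 at 18 hours (-0.0048 to 0.29) and BIRC3 at 3 hours (-0.18 to 0.16). BIRC3 there also stood at -0.0037 with DESeq2, -0.0083 with RLE factors and -0.018 with a mean of 50 counts.

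Genes called in the difference over all genes ranged from 0 (no replicate block, library code term, or 1 of 4 single cows left out) to 506 (without high responder 94) around 20 at 3 hours, and from 0 (no replicate block) to 435 (no filter) around 190 at 18 hours. Deposited TPM, which hold no composition factor, shifted the log2 response of the median gene by -0.45 to -0.18 against CPM. At 18 hours the shift was -0.35 in high and -0.18 in low responders. The rises of the 3 genes stayed above 0, and in TPM those of TNFAIP3 at 18 hours overlapped between the phenotypes. Upper quartile factors shifted the median response at 3 hours by -0.20 in high and -0.11 in low responders. The cause of these changes was not tested. With 3 cows per phenotype an exact permutation test of 1 value cannot reach a p below 0.05, so that calls rest on the models across genes, and depth limits genes of low counts, not these 3.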

Other observations

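TNIP1 is the 1 gene of the 3 with 2 annotated transcripts, and the mean length that RSEM gave it, weighted by their abundance, was compared between wells. At 3 hours it was 2496 ± 16.8 bases (SD, n = 6) in control wells and 2463 ± 14.8 in exposed wells, shorter after exposure in 6 of 6 cows, with differences of -73.2 to -7.6 bases (exact sign-flip test over 6 cows, two-sided p = 0.0312, the smallest it can give, adjusted 0.0625 over 2 tests). At 18 hours it was 2484 ± 10.5 in control and 2486 ± 15.0 in exposed wells, shorter in 2 of 6 cows (exact sign-flip p = 0.812, adjusted 0.812). The difference at 3 hours did not pass after adjustment. TNFAIP3 and BIRC3 have 1 annotated transcript each, with lengths of 2343 and 2308 bases in all libraries.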
